A study of Mus musculus with 2 samples.

Results

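Deep sites were merged regions of open chromatin on the autosomes whose midpoint lay inside a protein-coding gene spanning more than 200 kb and more than 20 kb from either end of any protein-coding gene. A region also needed at least 20 counts summed over both libraries. There were 10120 deep sites among 93155 autosomal regions with at least 20 counts and 109257 merged regions in all, and they lay in 836 of the 945 autosomal long genes. Position chose them, and no difference between the libraries entered the choice. Open chromatin was measured by ATAC-seq, an assay in which the Tn5 transposase places sequencing adapters in accessible DNA, in ITGA6+ CD34- cells sorted from the back skin of mice, that is, basal keratinocytes of the epidermis between hair follicles. The stretched library came from 1 CD1 mouse whose skin had been expanded by force, and the control library from 1 untreated CD1 mouse, with 10000 sorted cells in each. CD1 is an outbred stock, so treatment, animal, sort and library preparation cannot be told apart. No replicates exist in either group, so nothing was tested and every interval given covers counting error only.

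Long genes hold most of their length in introns, and enhancers that act on the gene itself or on neighbours often lie there. Many of the longest mammalian genes encode adhesion molecules and synaptic proteins of neurons, and several of them span common fragile sites, which replicate late and break under replication stress. Other long genes encode transcription factors and adhesion proteins that keratinocytes use, among them Trp63, a master regulator of the epidermis, and Dst, whose epithelial product ties keratins to hemidesmosomes. A long gene can also start transcription from promoters inside its own span, which then appear as open sites far from the annotated ends.

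Sequence was at hand for the deep sites that hold an annotated start of their host gene or a miRNA hairpin. Of the 10120 deep sites, 144 in 121 genes held such a start, and 5 of them were at least 2-fold higher or lower in the stretched library. The windows of the 4 of these with the most counts follow, each 300 bases from 250 before the start to 50 from it, with the mature miRNA whose hairpin lies in a deep site of Bcas3, one of the 5 of lowest fold among deep sites with at least 100 counts. Windows are in GRCm38.p6 from RefSeq, at chr9:100643198-100643497 (+ strand) for Stag1, chr2:60881389-60881688 (- strand) for Rbms1, chr10:89257741-89258040 (- strand) for Ano4 and chr11:76437256-76437555 (- strand) for Abr. Capitals mark GGGCGG, the core of a GC box, on either strand and TGANTCA, the AP-1 motif, in the windows, and the seed in the miRNA.
Stag1: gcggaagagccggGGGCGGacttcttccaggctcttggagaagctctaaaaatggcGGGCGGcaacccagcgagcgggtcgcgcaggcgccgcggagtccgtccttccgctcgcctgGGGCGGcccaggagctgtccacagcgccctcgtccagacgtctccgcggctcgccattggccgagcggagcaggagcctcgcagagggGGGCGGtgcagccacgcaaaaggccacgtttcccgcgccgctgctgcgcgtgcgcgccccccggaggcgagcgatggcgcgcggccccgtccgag
Rbms1: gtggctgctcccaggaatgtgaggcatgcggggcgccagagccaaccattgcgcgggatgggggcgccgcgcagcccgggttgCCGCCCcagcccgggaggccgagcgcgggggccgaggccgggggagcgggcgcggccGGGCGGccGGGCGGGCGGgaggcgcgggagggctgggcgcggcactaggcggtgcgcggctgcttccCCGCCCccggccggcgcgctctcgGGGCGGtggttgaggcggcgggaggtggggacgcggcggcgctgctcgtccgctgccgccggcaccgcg
Ano4: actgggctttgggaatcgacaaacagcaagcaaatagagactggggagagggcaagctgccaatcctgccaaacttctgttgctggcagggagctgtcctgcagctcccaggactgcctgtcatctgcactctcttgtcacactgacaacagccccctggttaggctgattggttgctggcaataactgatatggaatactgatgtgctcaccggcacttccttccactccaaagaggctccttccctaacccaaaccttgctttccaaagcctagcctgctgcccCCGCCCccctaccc
Abr: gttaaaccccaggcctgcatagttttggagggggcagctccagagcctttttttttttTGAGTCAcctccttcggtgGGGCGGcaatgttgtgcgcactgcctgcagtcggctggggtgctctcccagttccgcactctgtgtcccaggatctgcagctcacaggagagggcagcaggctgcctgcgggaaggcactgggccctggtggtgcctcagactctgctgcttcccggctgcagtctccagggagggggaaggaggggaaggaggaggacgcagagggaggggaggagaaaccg
mmu-miR-5110: gGAGGAGGuagagggugguggaauu
The windows of Stag1 and Rbms1, both more open in the stretched library, had 73.7% and 82.7% G or C and held 4 and 6 matches of GGGCGG. Those of Ano4 and Abr, both less open, had 55.3% and 62.7% G or C and held 1 match each. The window of Abr also held 1 match of TGANTCA. A match describes these letters and is not evidence that a factor binds.

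A region was called higher or lower where its fold, stretched over control after scaling the libraries with TMM factors, was at least 2 or at most 0.5 and its exact 95% interval excluded 1. By this rule 697 of the 10120 deep sites were higher in the stretched library (6.89%, interval 6.40 to 7.40) and 973 were lower (9.61%, 9.05 to 10.2). Over all autosomal regions the same rule called 6.99% higher and 8.79% lower. Both shares were within 1 percentage point of that background. The median log2 fold of deep sites was -0.05, with quartiles of -0.55 and 0.44, and the median over all autosomal regions was -0.01. A deep site had a median of 27 counts in the stretched library and 31 in the control library, over a median width of 665 bp. Scaling by total counts, which include 10 regions with over 10000 counts each, moved the median log2 fold of all autosomal regions to -0.51 and that of deep sites to -0.55. Directions below are therefore relative to the median of all regions under TMM.

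Regions at the ends of the same genes had a smaller lower share. Of the 525 regions touching an end of a long gene with deep sites, 6.10% were higher and 2.67% lower, with a median log2 fold of 0.22. End regions had more counts, and the comparison was repeated among regions with at least 100 counts. There, 3.81% of 2834 deep sites were higher (3.14 to 4.58) and 3.07% lower (2.47 to 3.77), against 7.31% higher (5.05 to 10.2) and 0.913% lower (0.249 to 2.32) of 438 end regions. At 20 counts or more the higher share was 6.89% in deep sites and 6.10% in end regions, so its order differed between these count limits. With the trend of fold on count removed, at 20 counts or more, the higher shares were 8.26% of deep sites and 1.71% of end regions. The lower shares were then 8.03% and 2.29%. At 100 counts or more, regions over 20 kb from gene ends and in no gene had 5.81% higher and 2.75% lower. Of 10570 deep sites of genes up to 200 kb with at least 20 counts, 5.05% were higher and 1160 (10.97%) were lower. At 100 counts or more, 2.53% of 3402 deep sites of genes up to 200 kb were higher and 5.17% lower. At both limits their lower share was larger than that of deep sites of long genes, 9.61% and 3.07%. Deep sites just inside the distance limit, 20 to 22 kb from a gene end had 3.40% higher and 11.6% lower (147 sites), and regions of long genes 18 to 20 kb from an end had 5.77% and 12.8% (156 regions). Deep sites in genes of 200 to 210 kb had 5.33% higher and 13.4% lower (469 sites), and those in genes of 190 to 200 kb had 4.11% and 8.02% (511 sites).

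**Figure D1:**
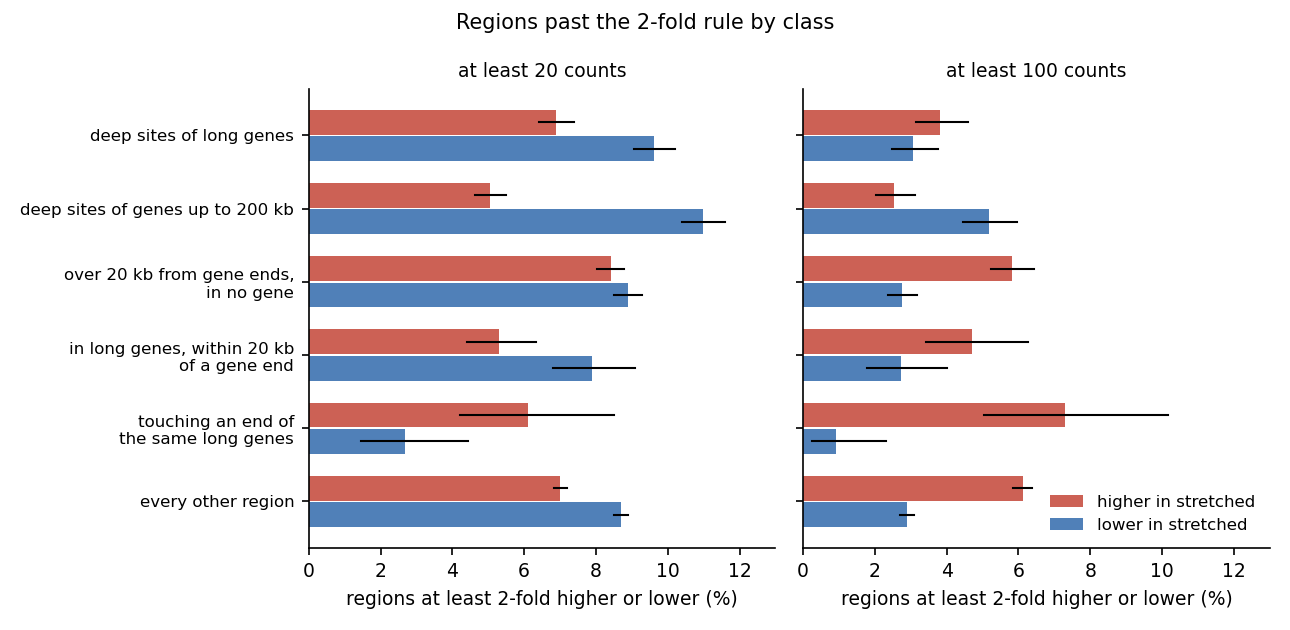
Percentage of regions at least 2-fold higher (red) or lower (blue) in the stretched library by class, for regions with at least 20 counts (left) and at least 100 counts (right). Black lines are exact 95% intervals of counting error. Deep sites with at least 100 counts were higher in 3.81% against 7.31% of regions at the ends of the same genes. At 20 counts or more these shares were 6.89% and 6.10%, and 8.26% and 1.71% with the count trend removed (not drawn).

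How densely a long gene was occupied by deep sites varied widely and differed between the gene lists. Density was counted per 100 kb of gene span lying over 20 kb from any gene end, in 933 long genes with at least 100 kb of such span. The median was 2.51 sites per 100 kb, 100 genes had none, and 253 genes had at least 5 per 100 kb. Transcription factors of epithelia had a median of 5.63 (31 genes) and genes of adhesion, polarity and cytoskeleton 5.44 (45 genes). Synaptic and neuronal adhesion genes had a median of 0.677 (82 genes), and 51 of them were under 1 site per 100 kb. Growth factor and morphogen signalling genes had 3.12 (31 genes), genes of vesicle traffic, lipid and metabolic enzymes 4.01 (33 genes) and common fragile site genes 1.40 (22 genes). This ordering used both libraries together and says nothing of stretching. The lists were chosen with earlier results of these data known. Sites per 100 kb tended to rise with how many coding genes had centres up to 500 kb away (Pearson 0.21, Spearman 0.36, as a description). With the gene itself counted, the median was 1 in the synaptic and fragile site lists and 3 or 5 in the others. How far such surroundings account for the differences between lists was not tested.

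The 10 most densely occupied long genes, named after their values were seen, included Trp63 at 15.4 sites per 100 kb and Nfib, a transcription factor of skin stem cells, at 15.3. Zmiz1, a transcriptional coactivator of the PIAS-like family, had 18.1, Gse1 16.6, Med13l, a Mediator subunit, 16.4 and Cmip 15.8. At the other extreme, 48 genes had at least 1000 kb over 20 kb from a gene end, and 13 of these had at most 1 site; those named were chosen after their values were seen. Nrg3, a neuregulin, and Sgcz, a sarcoglycan, had none. Those with 1 included Lrp1b, Csmd1, Pcdh15, Gpc5, Lrrc4c, Lingo2, Csmd3, Cdh12, Dcc and Erbb4. Auts2 (7.41 per 100 kb), Pde4d (4.76), Macrod2 (4.57), Cdh13 (4.28) and Rbms3 (4.13) were the most occupied genes of that length.

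**Figure D2:**
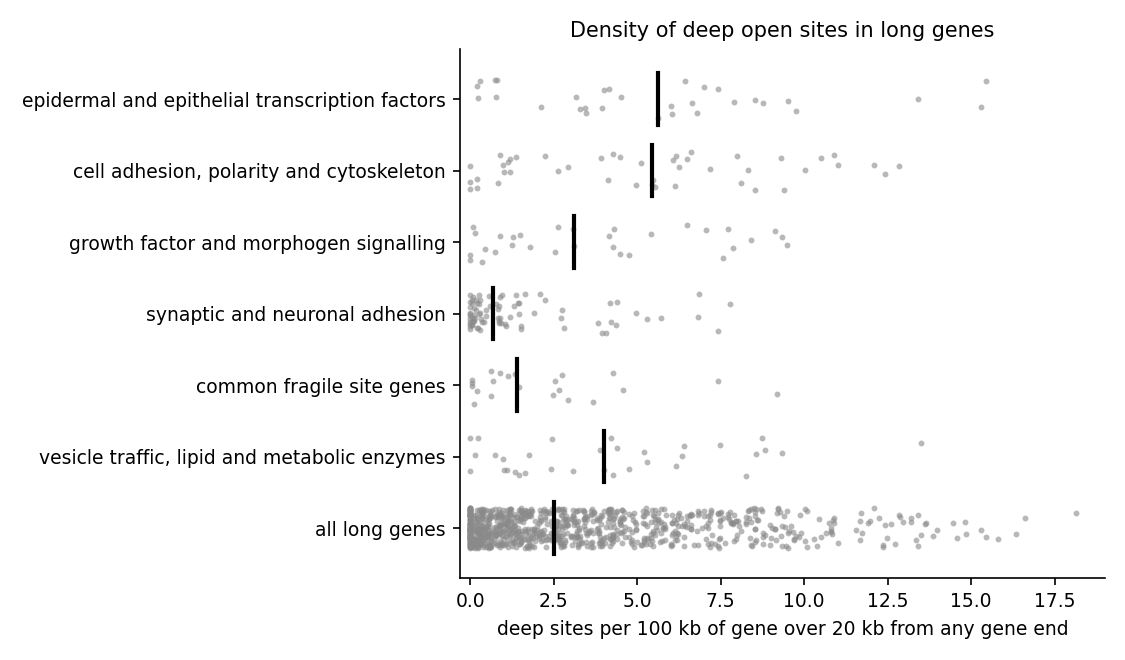
Deep sites per 100 kb of gene span lying over 20 kb from any gene end, by gene list. Each point is 1 long gene, the vertical offset within a list is random, and black bars are medians, which ran between 0.677 for synaptic and neuronal adhesion genes and 5.63 for epithelial transcription factors.

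Folds were then formed per gene from the summed counts of its deep sites. Of 568 genes with at least 5 deep sites and 200 counts, 205 (36.1%) had an interval above 1 and 163 (28.7%) below 1, and 200 held 1. The background for such calls was high: of 3105 autosomal protein-coding genes with at least 5 regions and 200 counts, 37.5% had an interval above 1 and 28% below 1. The share of long genes past the interval was thus near that of all genes. The measures differ, since the background included the long genes and summed every region inside a gene, those near its ends included. Scaling by total counts left 13 genes above 1 and 446 below, and scaling outside the large regions 105 above and 241 below, so the balance of directions rests on the scaling. Gene folds ran from 0.484 to 2.14, and the middle 80% of genes lay between 0.717 and 1.38. Sites of a gene are not replicates, since they share the gene, its neighbourhood and both libraries.

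Sites of the same gene had related folds. Among 2517 deep sites with at least 100 counts, in 359 genes with at least 3 such sites, the log2 fold had a standard deviation of 0.54 over all sites and 0.45 within genes. Counting error alone would give 0.23. Neighbouring pairs of these sites, a median of 20.7 kb apart, had log2 folds with a Pearson correlation of 0.34 across 2241 pairs, given as a description because all pairs share the same 2 libraries. In 244 genes with at least 3 called sites, 30 had only higher sites, 85 only lower sites and 129 had both. Lower calls also outnumbered higher ones over all deep sites, at 973 and 697. No background was computed for this split, so it does not bear on whether sites of a gene were related. Over 5 equal parts of the gene from its start, for the 7809 sites in genes with a strand, the share of higher sites stayed between 6.64% and 8.31% and that of lower sites between 7.45% and 10.2%. By distance to the nearest gene end, sites at 20 to 50 kb had 6.33% higher, 237 of 2150 lower and a median log2 fold of -0.07, and sites over 200 kb away had 9.04% higher, 8.97% lower and a median of 0.08. Single genes could differ along their length: 3 equal parts of Fto from its start had folds of 1.12, 1.07 and 0.470.

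Macrod2, an ADP-ribose hydrolase gene of 1998 kb that spans a common fragile site (chr2:140395303-142392966), held the most deep sites. Its 87 sites had 4679 counts in the stretched library and 3513 in the control library, a fold of 1.41 (1.35 to 1.47). Of these sites, 24 were higher and 3 lower, and 64 had a fold above 1. Cut into 3 equal parts from its start, the gene had folds of 1.37 and 1.51 in the first and the second part, which held 22 of the higher sites, and 1.01 (0.864 to 1.18) in the last. The region at a gene end moved further, with 809 counts in the stretched library against 273 in the control library, a fold of 3.13.

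The other genes with many sites fell on both sides. Auts2, a chromatin and cytoskeleton regulator of neurons (chr5:131437333-132543220), had 79 sites with 5055 counts in the stretched library and 4537 in the control library, a fold of 1.18 (1.13 to 1.23), with 9 sites higher and 4 lower. Pde4d, a cAMP phosphodiesterase (chr13:108654177-109955969), had 60 sites with 3926 against 3236 counts, stretched against control, a fold of 1.28 (1.22 to 1.34). Dlg2, a scaffold protein of synapses (chr7:90476188-92449246), had 53 sites with 2678 stretched and 2414 control counts, a fold of 1.17 (1.11 to 1.24), and the first of 3 equal parts reached 1.40. Pard3, the polarity scaffold of the apical PAR complex, had 56 sites and a fold of 1.06, with 4 sites higher and 4 lower. Tenm4, a teneurin adhesion protein, had 48 sites and a fold of 1.03 (0.981 to 1.09), an interval that holds 1. The folds above 1 of Macrod2, Auts2, Pde4d, Dlg2 and Pard3 fell below 1 under scaling by total counts, at 0.995, 0.833, 0.907, 0.829 and 0.749, and Pard3 was at 0.960 when scaled outside the large regions.

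Other genes with many sites were lower in the stretched library. Gse1, which encodes a coiled-coil protein found with histone deacetylase complexes (chr8:120228501-120581383), had 52 sites with 2195 counts in the stretched library and 3467 in the control library, a fold of 0.669 (0.634 to 0.706). None of its sites was called higher and 14 were lower, and 46 had a fold below 1. Cdh13, the GPI-anchored T-cadherin (chr8:118140017-119324929), had 49 sites with 1713 stretched and 2443 control counts, a fold of 0.741 (0.696 to 0.788), with 1 site higher and 15 lower. Its 3 equal parts, counted from the lower coordinate, had folds of 0.754, 0.718 and 0.648. Rora, an orphan nuclear receptor, had 61 sites and a fold of 0.870 (0.825 to 0.917), with no site higher and 8 lower.

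**Figure D3:**
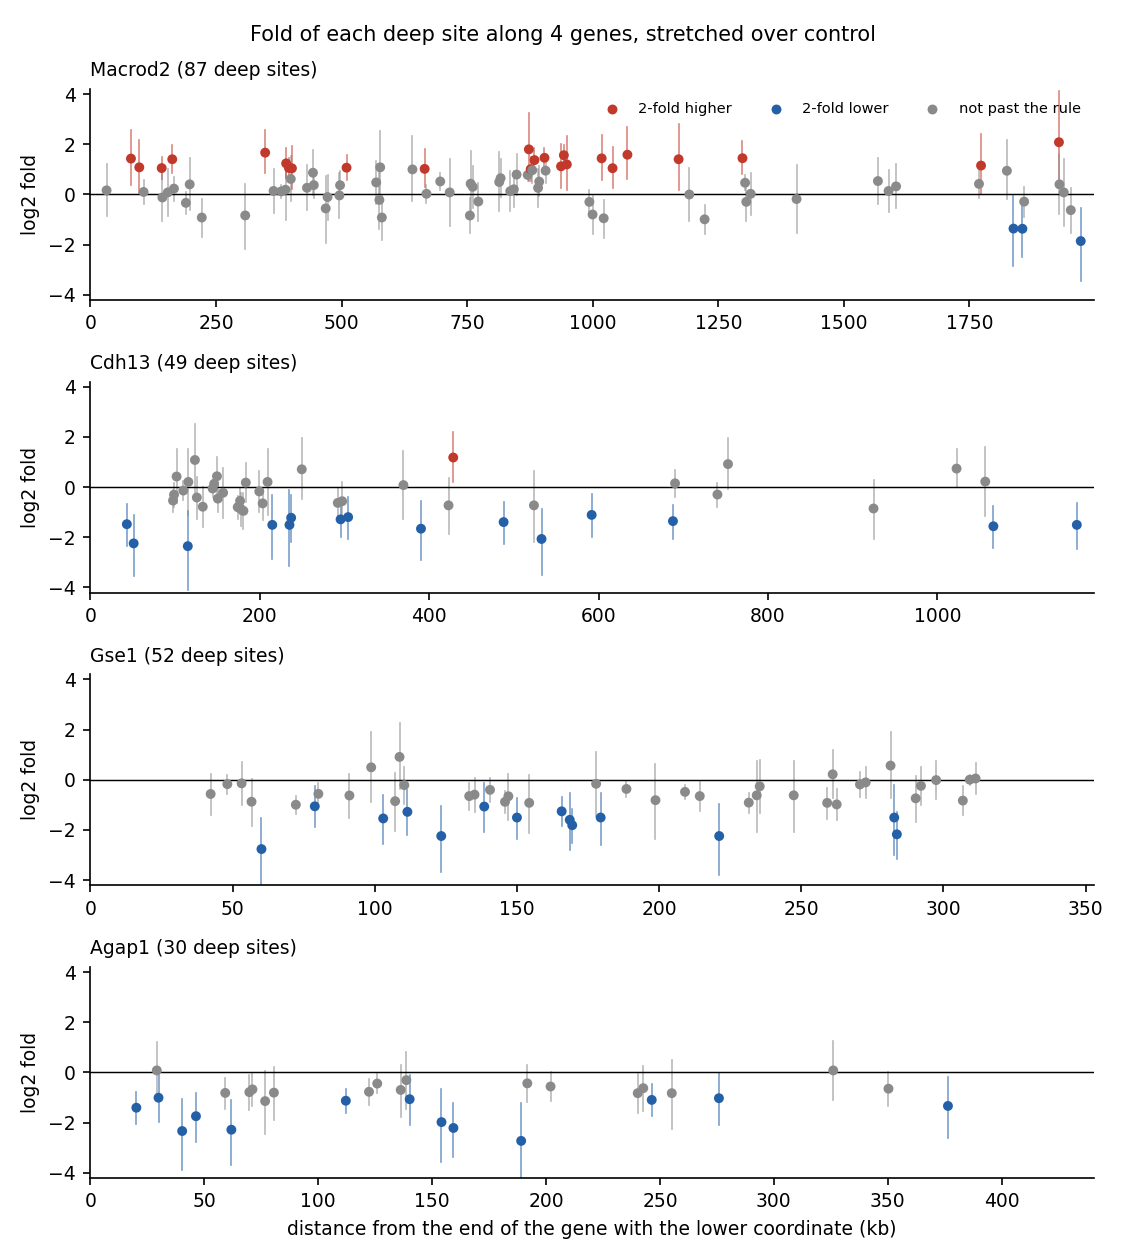
Log2 fold of each deep site, stretched over control, against distance from the end of the gene with the lower coordinate, in kb, for 4 genes. Vertical lines are exact 95% intervals of counting error; of the sites past the 2-fold rule, 24 were higher and 3 lower in Macrod2, 1 and 15 in Cdh13, 0 and 14 in Gse1, and 0 and 13 in Agap1.

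The 6 highest gene folds, in genes with 5 to 14 sites, came from Veph1, Stag1, Dok6, St6galnac3, Slc35f4 and Sema3d. Veph1, a PH-domain protein, had 180 counts in the stretched library and 89 in the control library, a fold of 2.14 (1.65 to 2.79). Stag1, a cohesin subunit, had 670 and 346, a fold of 2.05 (1.80 to 2.34). The internal start printed above held 482 of the stretched and 235 of the control counts, and without it the other 7 sites had a fold of 1.79 (1.41 to 2.28). Dok6, an adaptor downstream of receptor tyrosine kinases, had 750 against 393 counts, stretched against control, with 7 of 14 sites higher and none lower. St6galnac3, a sialyltransferase, had a fold of 1.95 (1.68 to 2.26), Slc35f4, a solute carrier, 1.91 (1.61 to 2.28) and Sema3d, a secreted semaphorin, 1.90 (1.56 to 2.31). All sites of Slc35f4 and Sema3d had folds above 1.

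The 6 lowest came from Rnf220, Skap1, Zfand3, Agap1, Dennd1a and Dscaml1. Agap1, an Arf GTPase-activating protein of endosomal traffic (chr1:89454811-89895282), had the most sites of them, 30, with 689 counts in the stretched library against 1382 in the control library, a fold of 0.527 (0.480 to 0.578). Of its sites, 13 were lower and none higher, and 28 had a fold below 1. Rnf220, a ubiquitin ligase, had 175 stretched and 382 control counts, a fold of 0.484 (0.402 to 0.580). Skap1, an adaptor of T-cell receptor signalling, had 101 and 218 counts, a fold of 0.490 (0.383 to 0.623). Every deep site of Rnf220, Skap1, Zfand3 and Dennd1a had a fold below 1. Dscaml1, a neuronal adhesion molecule, had a fold of 0.536 (0.473 to 0.607), Dennd1a, a Rab35 exchange factor, 0.532 (0.392 to 0.718) and Zfand3 0.511 (0.406 to 0.640).

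Deep sites and gene ends did not always move alike. In 386 genes with values at both, the median end fold was 1.16 and the median deep fold 0.997, and the end fold was the higher in 258. Intervals of both were above 1 in 60 genes and below 1 in 24. In 28 genes the deep sites were below 1 and the ends above 1, and in 8 the reverse. Zfand3 was one of the 28, with 117 stretched and 242 control counts over 7 deep sites, against 199 stretched and 104 control counts at its end, an end fold of 2.02 (1.59 to 2.59). Rnf220 was low at both, with 25 stretched and 64 control counts at its end. Gse1 had an end fold of 1.11 (0.863 to 1.42), an interval that holds 1 and lies above its deep fold. Across the 386 genes the log2 folds of deep sites and ends had a Pearson correlation of 0.29, as a description. End regions had a median of 260 counts against 58 for deep sites, and these gene folds were not adjusted for count. With the trend of fold on count removed, 1.71% of end regions and 8.26% of deep sites were higher, and 2.29% and 8.03% lower.

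**Figure D4:**
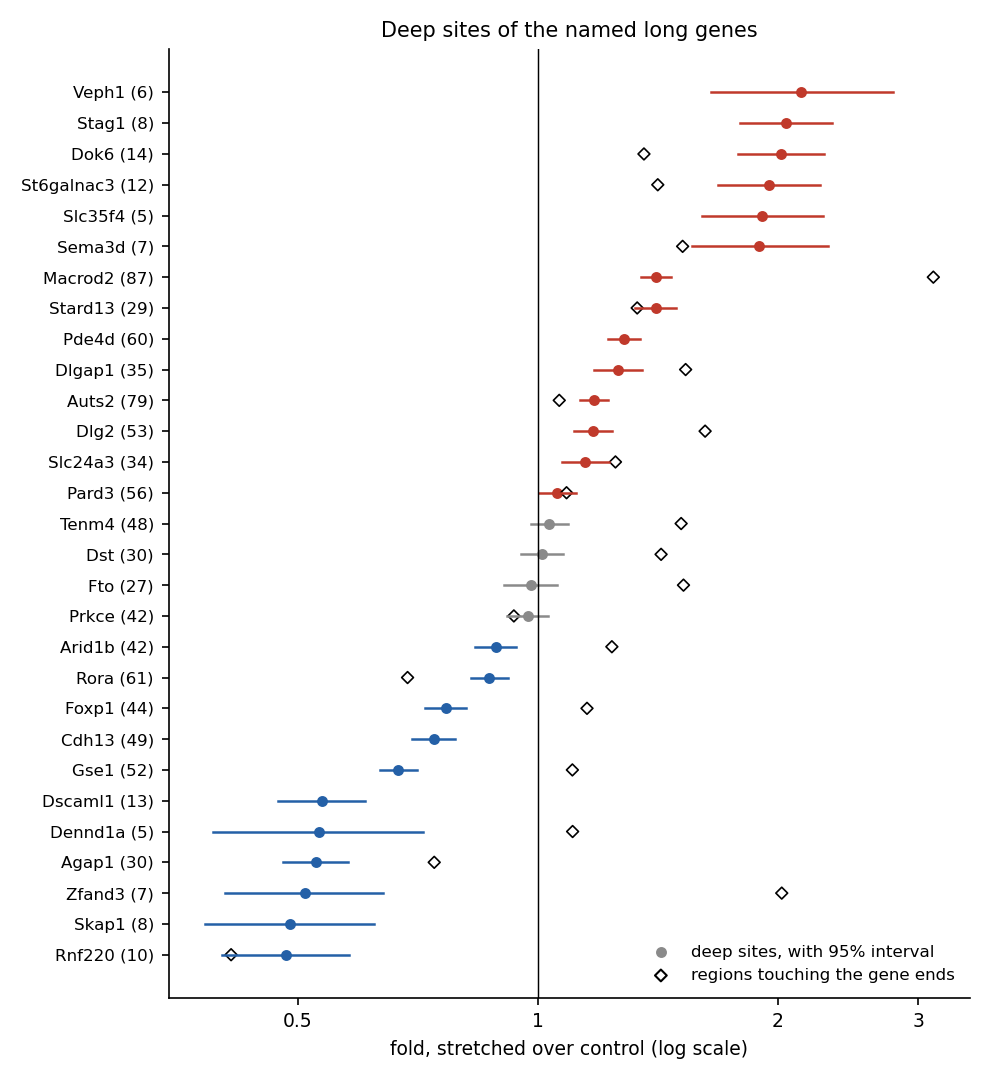
Fold of summed deep sites, stretched over control, on a log scale for the genes named by rule and reported here, with the number of deep sites in brackets. Points with lines are deep sites with exact 95% intervals of counting error (red above 1, blue below 1, grey holding 1) and open diamonds are regions touching the gene ends; Zfand3 had 0.511 in deep sites and 2.02 at its end. Under scaling by total counts, Macrod2, Stard13, Pde4d, Dlgap1, Auts2, Dlg2, Slc24a3 and Pard3 move below 1.

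Folds varied with the number of genes around a site. Deep sites with 0 to 2 protein-coding genes centred within 500 kb had 9.76% higher and 7.57% lower (2418 sites). The shares were 7.92% and 8.42% at 3 to 5 genes, 5.63% and 9.05% at 6 to 10, 2.64% and 15.8% at 11 to 20, and 2.08% and 23.6% at 21 or more (144 sites). Other classes of regions also had a smaller higher share and a larger lower share at 21 or more genes than at 0 to 2. Their steps between were not always steady. The lower share of all other autosomal regions was 6.96% at 3 to 5 genes, 6.98% at 6 to 10 and 9.93% at 11 to 20. Regions touching an end of a long gene with deep sites were higher in 4.59% at 0 to 2 genes and 10.5% at 3 to 5. Deep sites of genes up to 200 kb had 11.8% higher and 5.38% lower at 0 to 2 genes and 2.61% and 18.9% at 21 or more, and all other autosomal regions together had 766 of 6961 higher and 6.98% lower at 0 to 2 genes and 3.57% and 11.1% at 21 or more. By gene, the median fold of deep sites was 1.15 in 135 genes with up to 2 genes near their centre and 0.704 in 9 genes with 21 or more. Across 568 genes the log2 fold and this number had a Pearson correlation of -0.44 and a Spearman correlation of -0.42, as a description, since all genes share the same 2 libraries.

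The number of genes near the centre did not alone order the genes. Macrod2 and Cdh13 both had no other protein-coding gene centred within 500 kb of their own centre, and their folds were 1.41 and 0.741. Both span over 1000 kb and fill that window by themselves, so the count says nothing of their flanks. Agap1 had 5 genes including itself and was among the 6 lowest. Stag1 had 8 and was among the 6 highest. Longer genes had fewer neighbours, which the measure itself favours, since a gene over 1000 kb fills the window around its centre. Sites in genes over 1000 kb were higher in 11.9% and lower in 7.90% (924 sites). In genes of 200 to 300 kb these shares were 5.72% and 9.63% (3603 sites).

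**Figure D5:**
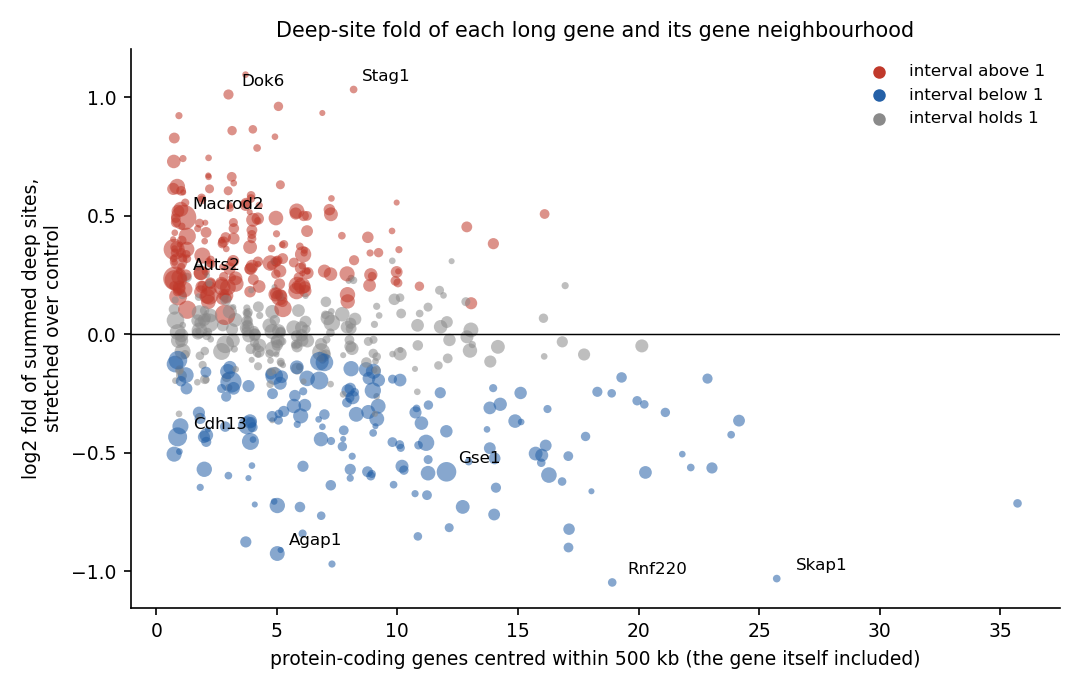
Log2 fold of summed deep sites of each of 568 long genes, stretched over control, against how many protein-coding genes, itself included, are centred within 500 kb. Point area follows the number of deep sites, colours give the exact 95% interval of counting error, and points are jittered sideways; median folds ran between 1.15 for genes with up to 2 and 0.704 for genes with 21 or more.

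The gene lists were read against the shares over all deep sites, 6.89% higher and 9.61% lower. Of 607 deep sites in 31 epithelial transcription factor genes, 32 were higher (5.27%) and 66 lower (10.9%), with a median log2 fold of -0.15. Foxp1, a forkhead repressor, had 44 sites with 1925 stretched and 2654 control counts, a fold of 0.766 (0.722 to 0.813), with 10 sites lower and none higher. Arid1b, a subunit of the BAF remodelling complex, had 42 sites and a fold of 0.886 (0.835 to 0.939). Without its site with the most counts the fold was 0.805 (0.755 to 0.858). Trp63 itself had 26 sites, 4 higher and 2 lower, with 931 counts in the stretched library and 835 in the control library, a fold of 1.18 (1.07 to 1.30); it was named after its value was seen.

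Of 801 sites in 42 genes of adhesion, polarity and cytoskeleton, 51 were higher (6.37%) and 85 lower (10.6%). Dst had 30 sites with 2130 stretched and 2222 control counts, a fold of 1.01 (0.954 to 1.08). Of 506 sites in 29 growth factor and morphogen signalling genes, 38 were higher (7.51%) and 39 lower (7.71%), with a median log2 fold of 0.14. In that list Prkce, a protein kinase C, had a fold of 0.971 (0.916 to 1.03) and Dlgap1, a scaffold of postsynaptic densities, 1.26 (1.18 to 1.35). Of 423 sites in 31 genes of vesicle traffic, lipid and metabolic enzymes, 33 were higher (7.80%) and 35 lower (8.27%). There Stard13, a GTPase-activating protein with a lipid-binding domain, had a fold of 1.41 (1.32 to 1.49). Its site with the most counts held 701 of 2593 stretched and 335 of 1950 control counts, a fold of 2.21 (1.94 to 2.53). Slc24a3, a sodium-calcium exchanger, had a fold of 1.15 (1.07 to 1.23) and Fto, an RNA demethylase, 0.980 (0.908 to 1.06).

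The synaptic and neuronal adhesion genes had few sites per length. Of 800 sites in 71 genes, 90 were higher (11.3%) and 74 lower (9.25%), with a median log2 fold of 0.11, but 17 were higher and 162 lower under scaling by total counts, and 60 and 92 outside the large regions. Of the genes, 36 had an interval above 1 and 11 below 1, and the median gene fold was 1.19, against 265 above and 197 below of all 836 long genes with deep sites and a median of 1.03. Of 512 sites in 22 common fragile site genes, which share members such as Auts2 and Dlg2 with that list, 57 were higher (11.1%) and 52 lower (10.2%). Macrod2 alone held 24 of these higher sites and 3 of the lower, and Cdh13 held 1 and 15. The shares of the fragile site list therefore rest largely on single genes. Both lists had a median of 1 protein-coding gene within 500 kb, the gene itself, against 5 over all long genes with deep sites. Genes over 1000 kb fill that window around their centre by themselves. Regions at the ends of Schwann cell and neuron markers had 138 counts in the stretched library and 83 in the control library, in 2 of 4 genes, with none at Rbfox3 and Snap25. Melanocyte markers had 771 stretched and 630 control counts in 3 of 5 genes, with none at Dct and Tyr. Basal keratinocyte markers had 1922 stretched and 1780 control counts in 6 of 7 genes. Suprabasal markers had 108 stretched and 158 control counts in 2 of 4 genes, hair follicle stem cell markers 332 and 424 in 5 of 5, fibroblast markers 14 and 25 in 1 of 5, and Langerhans and T cell markers 38 and 29 in 1 of 4. Endothelial markers had none. The part of other cells in these folds was not tested.

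The fold of a gene pools its sites, so single sites reach further by construction. Among deep sites with at least 100 counts, the largest rise was in Phldb2, which encodes a cortical protein that anchors microtubules near adhesions (chr16:45890501-45890987), with 88 counts in the stretched library and 23 in the control library, a fold of 4.04 (2.53 to 6.71). A site in Efna5, an ephrin ligand (chr17:62687164-62687994), had 317 against 102 counts, stretched against control, a fold of 3.28 (2.62 to 4.15). Sites in Dok6, Ghr, the growth hormone receptor, and Sgms1, a sphingomyelin synthase, had folds of 3.09, 3.02 and 2.96.

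Among the same sites with at least 100 counts, the largest falls were in Gse1, Bcas3, Btbd9, Ano4 and Zbtb20. The site in Gse1 (chr8:120397387-120398486) had 24 counts in the stretched library and 89 in the control library, a fold of 0.285 (0.174 to 0.451). The site in Bcas3 (chr11:85760548-85761647), which holds the hairpin of the miRNA printed above, had 34 and 125 counts, a fold of 0.287 (0.191 to 0.423). Counts there measure open DNA and not the miRNA. A site in Zbtb20, a zinc finger repressor (chr16:43130327-43131454), had 29 stretched and 90 control counts, a fold of 0.340 (0.216 to 0.523). The other 4 deep sites with a hairpin, in Zmiz1, Fndc3b, Shank2 and Gse1, were not past the rule, and the lowest of them, in Shank2, had a fold of 0.665. The deep site with the most counts lay in Myo3a (chr2:22588385-22590491) and had 1403127 counts in the stretched library and 739073 in the control library, a fold of 2.01. It was 1 of the 10 regions with over 10000 counts, and without it the deep sites summed to 455072 stretched and 474172 control counts.

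Few sites at internal starts were past the 2-fold rule. Of the 144, 2 were higher (1.39%, 0.169 to 4.93) and 3 lower (2.08%, 0.432 to 5.97), against 6.96% and 9.74% of 9919 deep sites with no annotated start. They were also larger, with a median of 142 counts against 58. At 100 counts or more, 2 of 99 sites at starts were higher (2.02%, 0.246 to 7.11) and 1 was lower (1.01%), against 3.84% and 3.10% of 2707 sites without a start, a difference within counting error. The start in Stag1 had 482 stretched and 235 control counts, a fold of 2.17 (1.85 to 2.54), and that in Rbms1, an RNA-binding protein, had 159 and 72, a fold of 2.33 (1.76 to 3.13). The start in Abr, a regulator of small GTPases, had 13 stretched and 80 control counts, a fold of 0.172 (0.0876 to 0.311). That in Ano4, an anoctamin, had 25 and 82, a fold of 0.322 (0.197 to 0.509), and that in Atp2b2, a plasma membrane calcium pump, had 14 and 32, a fold of 0.462 (0.228 to 0.891).

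In 81 genes with at least 5 other deep sites and 100 counts at internal starts, the starts had the higher fold in 43. Intervals were apart with the start higher in 16 genes and lower in 12, and both medians were 1.05. In Gse1, the start had 437 stretched and 461 control counts, an interval of 0.877 to 1.14 that lies above the 0.669 of the whole gene. Sites whose start window had at least 60% G or C had a median log2 fold of 0.17 and a median of 194 counts (57 sites), and the others -0.13 and 117 counts (87 sites). Folds of sites at starts also differed by count, without a steady order. From the highest of 4 count classes down, the median log2 fold was 0.12 (79 sites), -0.29 (34), -0.16 (22) and -0.02 (9). The part of depth in the split by G or C was not tested. Among 150 start windows in deep sites, 43.3% held GGGCGG on either strand, against 47.0% of 20085 windows of autosomal protein-coding starts. TGANTCA was in 9.33% against 7.06% and TATAAA, searched on both strands, in 4.67% against 12.7%.

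Peaks that the authors called in each library overlapped 73.2% of deep sites in the stretched library and 66.3% in the control library. Both libraries had a peak at 5611 sites, the stretched library alone at 1793 and the control library alone at 1100, and 1616 had none. Other autosomal regions were covered by peaks at 75.2% in the stretched and 70.1% in the control library. At sites with peaks in both, the authors' fold enrichment over local background had a median of 6.32 in the stretched library and 5.21 in the control library. Peak calling depends on depth, and after filtering the stretched library had 23876613 fragments and the control library 31944854. The stretched library, with fewer fragments, had more peaks, 75545 against 70544. It also had more counts in regions, 11803785 against 8820178, and 6027023 against 5776423 without the regions over 10000 counts. How this difference between the libraries bears on the folds was not tested.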

How the data were processed

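ATAC-seq libraries of 1 stretched and 1 control mouse were grouped by the treatment label. The submitters' processing notes list GRCm38, MACS2 2.1.0.20151222, HTSeq, Picard, SAMtools and Bowtie2 2.2.6. The deposited counts are raw counts per merged region, 11803785 in the stretched and 8820178 in the control library. Per the file headers, the authors called peaks per library with a q cutoff of 0.05, and the pileup signal, -log10 p-value and q-value and fold enrichment are theirs. The sources used here do not give whether reads or fragments were counted or whether duplicates were removed. TMM factors came from edgeR 4.0.16 in R 4.3.3. Folds have Clopper-Pearson 95% intervals, and a count of 0 was set to 3. No molecular identifiers are named, so counts may not be independent molecules and intervals cover counting error only. Other steps used Python 3.11.15, pandas 2.3.3, scipy 1.17.1 and numpy 2.4.6. The call rule was tested on simulated data. Gene spans came from RefSeq, where 707 long genes had a strand. Sites went to the shortest long gene holding them. Exons and introns were not used here.

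Members, lists and tests were chosen with earlier results of these data known. Named genes were the 10 with the most deep sites, the 6 highest and 6 lowest folds with at least 5 sites and 200 counts, the 5 single sites furthest up and down with at least 100 counts, and the 3 genes of each of 6 lists with the most counts; some genes that qualified are not reported here. Alternatives changed scaling, count, span and distance limits, the fold and interval, and the peak rule. For named genes, others left out the site with the most counts or gave sites to every long gene holding them. Those for site density were added after the data were seen.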

Additional observations from a re-analysis of the deposited data

How the results depend on the processing

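No paired analysis was possible because there was 1 library per group, and none could be left out. Scaling by DESeq2 size factors (DESeq2 1.42.0) moved none of the overall counts, class differences, named genes and single sites beyond counting error, or 1.5 times for counts, and was not run on the gene lists. Total scaling gave 179 deep sites higher and 2516 lower and a median log2 fold of -0.55. It turned the folds of Auts2 (0.833), Dlg2 (0.829), Dlgap1 (0.890), Macrod2 (0.995), Pard3 (0.749), Pde4d (0.907), Slc24a3 (0.811) and Stard13 (0.994) below 1. Higher and lower sites became 9 and 173 for transcription factors, 12 and 203 for adhesion, 6 and 105 for growth factors, 17 and 162 for synaptic genes, 11 and 124 for fragile site genes, and 7 and 106 for vesicle and metabolic genes. Deep sites minus other classes, in percentage points, became 1.56 lower against every other region, 0.519 higher against long genes near ends, 0.529 higher and -3.41 lower against genes up to 200 kb, -0.760 higher and 1.99 lower against regions in no gene, and 14.6 lower against gene ends. Scaling outside the large regions gave a median of -0.19, Pard3 at 0.960, 34 higher sites in fragile site genes and 23 in growth factor genes, and differences of 0.484 higher against long genes near ends and 9.08 lower against gene ends.

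At 50 counts or more there were 320 higher and 404 lower sites, a median of -0.011, and differences of -0.73 higher against every other region and 4.92 lower against gene ends. At 100 or more there were 108 and 87, a median of 0.037, and differences of -2.31 higher and 0.181 lower against every other region, -0.883 higher and 0.341 lower against long genes near ends, and -3.50 higher and 2.16 lower against gene ends. With the count trend removed, the median was -0.016 and the higher differences 1.02 against every other region and 6.55 against gene ends. A span limit of 500 kb gave 283 and 247 sites and a median of 0.080, and one of 100 kb gave 1662 lower sites and a median of -0.072. A fold limit of 1.5 gave 1225 and 1469 sites and one of 3 gave 205 and 381. Leaving out the site with the most counts moved 5 named genes out of their intervals and left 25 within. Peaks with a -log10 q of at least 5 covered 54.0% of deep sites in the stretched and 47.6% in the control library. The ratio of the synaptic list's median density to that of all long genes stayed between 0.217 and 0.318 over the 4 count and peak limits tried. The cause of these changes was not tested.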
